A study of Mus musculus with 2 samples.

Results

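Microglia are the resident macrophages of the central nervous system, and they are recognised by genes such as P2ry12, Tmem119 and Cx3cr1. In droplet scRNA-Seq each barcode stands for 1 cell, and its depth is its number of UMIs, the distinct transcript molecules read from it. A cell with few UMIs can be a small or resting cell, a cell that has lost RNA or a droplet that holds little more than free RNA, and depth alone does not separate these. Ribosomal protein mRNAs are abundant in intact cytoplasm, and ribosomal RNA itself is not polyadenylated and is mostly left out by an oligo-dT assay.

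The cells described here were the shallow cells with what is called here a usual ribosomal share, meaning at least 2.5%. They were selected on depth and on ribosomal share. Barcodes with over 300 detected genes were kept if mitochondrial genes held less than 5% of their UMIs. A kept cell entered the group when at least 2.5% of its UMIs were on ribosomal protein genes and when it held fewer than 1200 UMIs. In all, 134 of 1592 kept cells met the rule, and they are called shallow cells below. They were compared with 647 deep cells, which met the same ribosomal limit and held at least 1200 UMIs, and with 109 shallow ribosome-poor cells, which held fewer than 1200 UMIs and under 2.5% ribosomal protein UMIs. For comparisons of levels, deep cells were thinned at random to the median depth of the shallow cells of their library, and UMIs were summed over the cells of a group.

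The study asked how microglia change when 4E-BP1 is lost. 4E-BP1, encoded by Eif4ebp1, is a repressor of cap-dependent translation that binds the initiation factor eIF4E. The control library, labelled WT, came from Eif4ebp1fl/fl mice, and the 4E-BP1 cKO library came from Eif4ebp1fl/fl:TMEM119CreERT2 mice, in which the Tmem119 promoter drives a tamoxifen-inducible Cre in microglia. By the methods the mice were males of 8 to 10 weeks, Cre was induced with 4-OHT, the active form of tamoxifen, given daily from postnatal day 4 to day 9, and genotyping amplified exon 2 of the conditional allele. Only the cKO genotype is written with the Cre driver, so the presence of Cre is not matched between the libraries. Cells were taken from lumbar spinal cord and sorted as CD45lo CD11b+ CX3CR1+, a gate for microglia, as the labels give it. Each genotype had 1 library, the sources used here do not say how many mice went into it, and genotype and library cannot be told apart. No test was therefore made, and every interval below is a 95% interval that covers counting error only.

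The WT library held 1216 barcodes with 4914298 UMIs, and the cKO library held 474 barcodes with 1769927 UMIs. Of these, 1147 and 445 barcodes were kept, and the libraries shared 0 barcodes. Shallow cells numbered 90 in the WT library, or 7.85% of kept cells (exact binomial interval 6.36 to 9.56%). They numbered 44 in the cKO library, or 9.89% (7.28 to 13%). The intervals cover counting only, and with 1 library per genotype the shares were not tested against each other. Among kept cells under 1200 UMIs, the usual ribosomal share was held by 64.3% in the WT library and 42.7% in the cKO library.

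Shallow cells had a median of 626 UMIs in the WT library (range 500 to 1197) and 686 in the cKO library (503 to 1158). The median over all kept cells was 3053 and 2776 UMIs, so the usual cell was several times deeper. They had a median of 408 and 447 detected genes. Their summed UMIs, 63082 in the WT and 32052 in the cKO library, set the precision of all levels given below. Their median ribosomal share was 4.88% in the WT and 4.68% in the cKO library, against 5.94% and 7.2% in deep cells. Over all kept cells the median was 2.22% and 3.53%, so the shallow cells lay above the middle cell of each library. The ribosomal share entered the rule, so these values describe the selection.

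**Figure D1:**
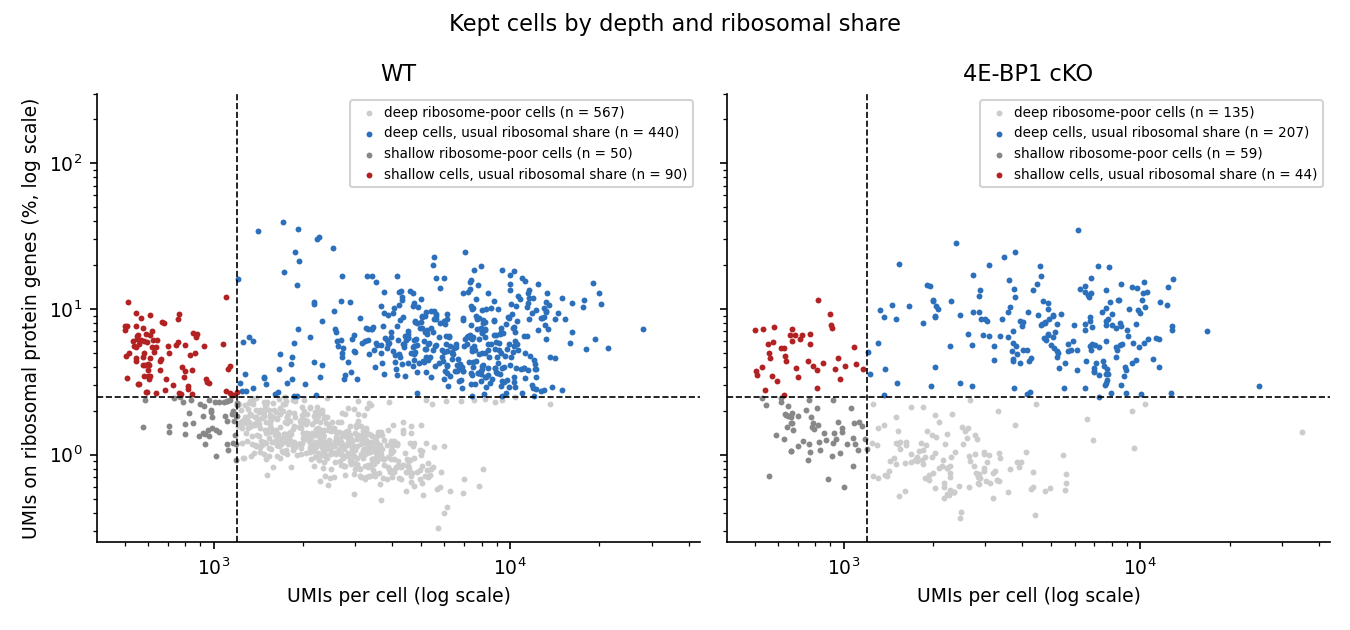
Each point is 1 kept cell, with its UMIs on the x axis (log scale) and the percentage of them on ribosomal protein genes on the y axis (log scale), for the WT (left) and 4E-BP1 cKO library (right). Dashed lines mark 1200 UMIs and 2.5%. The 90 and 44 shallow cells fill the upper left corner. Of the cells to the right of the depth limit in the upper part, 42 WT and 28 cKO cells hold fewer than 2500 UMIs and 289 and 116 hold at least 5000.

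Mitochondrial RNA, which was used by the filter, was somewhat more abundant in the shallow cells. The median mitochondrial share was 1.13% in WT and 0.765% in cKO shallow cells, against 0.803% and 0.652% in deep cells. The filter itself acted mostly on shallow barcodes. Under 1200 UMIs, 35 of 179 WT barcodes (19.6%) and 16 of 123 cKO barcodes (13%) had at least 5% mitochondrial UMIs. At 1200 UMIs or more, the same held for 2.89% and 2.56%. The cells described here are thus those that passed a filter which removed more of the shallow barcodes.

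At equal depth the shallow cells spread their UMIs over fewer genes. Each cell was thinned at random to 500 UMIs. WT shallow cells then had a median of 350 detected genes (quartiles 327.5 to 370.0), against 392 in deep cells and 380 in shallow ribosome-poor cells. Medians in the cKO library were 355 (329.0 to 372.5), 382 and 375. The shallow cells with a usual ribosomal share were therefore the lowest of these 3 groups in each library, although the ranges over cells overlap.

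Microglial identity genes were present in nearly all shallow cells. Of 18 microglial genes, at least 3 were detected in 87 of 90 WT and 43 of 44 cKO shallow cells thinned to 500 UMIs, and no gene of the list was at 0 in either library. Their summed share of UMIs was 3.15% (3.01 to 3.29%) in WT and 3.55% (3.35 to 3.76%) in cKO shallow cells. This lay below deep cells at 4.15% and 4.31%, and above shallow ribosome-poor cells at 1.36% and 1.49%. No microglial gene was among the genes with the largest excess over deep cells, and the median depth was far below that of all kept cells, so the group is named here by its rule and not as a microglial type.

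Cxcl10 and Spp1, named as markers of these cells, were found in few of them. Cxcl10 encodes an interferon-induced chemokine that attracts lymphocytes, and Spp1 encodes osteopontin, a secreted matrix protein raised in activated microglia. Cxcl10 had 11 UMIs in 9 WT shallow cells and 8 UMIs in 5 cKO shallow cells. Levels were 174 CPM (UMIs of a gene per 1000000 UMIs of the group) in WT shallow and 145 CPM in WT deep cells, a ratio of 1.20 (0.56 to 2.38). The cKO values were 250 and 218 CPM, a ratio of 1.14 (0.45 to 2.54). Neither interval leaves out a ratio of 1.

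Spp1 had 6 UMIs in 5 shallow cells of each library. Its levels were 95.1 CPM in WT shallow and 50.8 CPM in WT deep cells, a ratio of 1.87 (0.59 to 5.18). Its cKO levels were 187 and 70.4 CPM, a ratio of 2.66 (0.79 to 8.07). Both ratios were above 1 with intervals that include 1, and they depended on the thinning. The log2 ratios of 0.89 and 1.40 became 1.57 and 1.99 with deep cells not thinned, and 2.24 and 2.93 with all cells thinned to 500 UMIs. The intervals are for the thinned counts, and none is given for deep cells not thinned. Before thinning, deep WT cells had 1, 21 and 75 Spp1 UMIs at 1200 to under 2500, 2500 to under 5000 and from 5000 UMIs. These were 13.5, 49.9 and 28.9 CPM. Deep cKO cells had 4, 24 and 30 UMIs in these ranges, or 79.1, 98.9 and 31.4 CPM. Against shallow ribosome-poor cells, where Cxcl10 stood at 20.3 CPM in WT and 20.6 CPM in cKO on 1 UMI each, Cxcl10 was higher by 8.57-fold (1.25 to 369) and 12.1-fold (1.63 to 538). Deeper ribosome-poor cells had more Cxcl10. From 1200 to under 2500 UMIs they stood at 112 CPM in WT on 59 UMIs and 92.4 CPM in cKO on 13 UMIs. From 2500 UMIs they stood at 94.0 and 72.0 CPM. Spp1 stood at 20.3 CPM in WT and 82.3 CPM in cKO shallow ribosome-poor cells. Its ratios to these shallow ribosome-poor cells were 4.68 (0.57 to 215) and 2.28 (0.54 to 11.0), with intervals that include 1. In all, 77 of 90 WT and 34 of 44 cKO shallow cells had no UMI of either gene, and 1 WT cell had both. The gate held no other cell type in number, so no background share of cells with free Cxcl10 or Spp1 RNA could be given.

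Of the transcripts with a 2-fold excess over deep cells in both libraries, the most abundant was Gm42418. RefSeq lists it as Rn18s-rs5, a pseudogene related to 18S ribosomal RNA, at chr17:39846354-39848202 of GRCm38. Its neighbour AY036118, a long noncoding RNA at chr17:39848112-39898385, overlaps its end. Reads from ribosomal RNA copies and from these 2 overlapping genes may have been assigned to either, so the split between them is uncertain.

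Gm42418 took 3.26% (3.12 to 3.41%) of the UMIs of WT shallow cells, against 0.819% (0.786 to 0.854%) in deep and 0.909% (0.827 to 0.998%) in shallow ribosome-poor cells. The cKO library had 1.93% (1.79 to 2.09%), 0.704% (0.661 to 0.749%) and 0.574% (0.509 to 0.645%). It was the most abundant transcript of WT shallow cells and ranked 3 in cKO shallow cells. The excess over deep cells was 3.99-fold (3.75 to 4.23) in WT and 2.75-fold (2.48 to 3.04) in cKO. Against ribosome-poor cells under 1200 UMIs it was 3.59-fold (3.24 to 3.99) and 3.37-fold (2.92 to 3.90). Those cells were deeper than the shallow cells, with medians of 986.5 UMIs in WT and 788 in cKO against 626 and 686.

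Within ranges of depth, compared after the values were seen, the order was the same. From 500 to under 800 UMIs, Gm42418 took 3.82% in WT shallow cells and 1.22% in 9 ribosome-poor cells. From 800 to under 1200 UMIs it took 2.16% and 0.862%, the latter in 41 cells. The cKO shares were 2.08% against 0.618% in the lower range and 1.73% against 0.540% in the upper range.

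The excess was spread over the cells. All 90 WT and all 44 cKO shallow cells had at least 1 Gm42418 UMI. The share per cell had a median of 3.17% in WT, with a lowest value of 0.440% and a highest of 9.89%. In cKO shallow cells the median was 1.68%, from 0.122% to 4.44%. The medians of deep cells were 0.662% and 0.434%. Above 1% lay 90% of WT and 75% of cKO shallow cells, against 19.8% and 17.9% of deep cells. The ranges overlap, and single deep cells reached 9.67% and 4.63%.

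**Figure D2:**
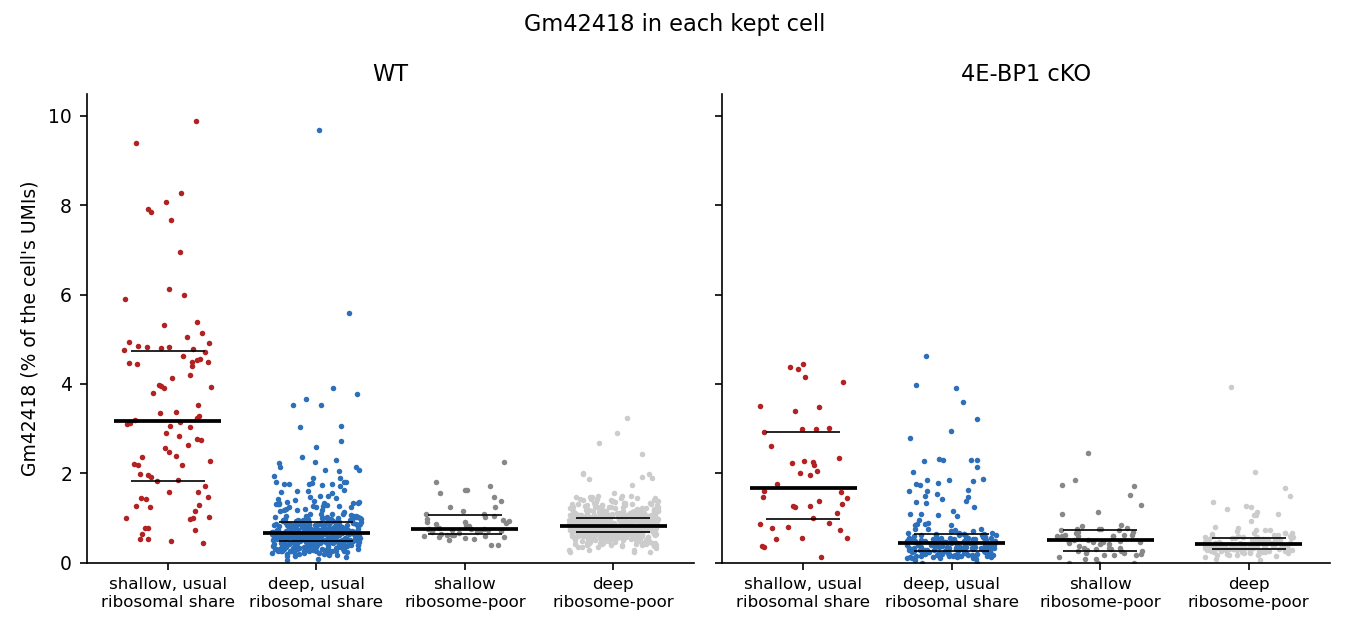
Each point is 1 kept cell and the y axis is the percentage of its UMIs on Gm42418, by group of cells and library. Thick lines are medians and thin lines quartiles over cells. Shallow cells have medians of 3.17% (WT) and 1.68% (4E-BP1 cKO), and every other group has a median under 0.9%.

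AY036118 was also highest in shallow cells, at a lower level. It had 357 UMIs in 83 WT shallow cells and 107 UMIs in 38 cKO shallow cells. Its share was 0.566% in WT shallow cells, 0.116% in deep cells and 0.405% in ribosome-poor cells. The same shares were 0.334%, 0.0746% and 0.212% in the cKO library. The ratio to deep cells was 4.87 (4.18 to 5.68) in WT and 4.47 (3.39 to 5.91) in cKO. With a minimum of more than 500 genes the WT log2 ratio was 1.51 in place of 2.28, and that of Gm42418 was 1.23 in place of 1.99. The ratio to ribosome-poor cells was smaller, at 1.40 (1.17 to 1.67) and 1.58 (1.19 to 2.09). At matched depth, AY036118 was lower in shallow than in ribosome-poor cells in 1 of 4 ranges, at 3394 against 4074 CPM in WT from 800 to under 1200 UMIs. It was higher in the other ranges, at 6807 against 3872 CPM in WT under 800 UMIs, and at 3396 against 1998 CPM and 3255 against 2211 CPM in the lower and upper cKO ranges. Unlike Gm42418, AY036118 also had a clearly higher level in ribosome-poor than in deep cells of each library.

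Jarid2 also showed a large excess on many UMIs. It encodes a protein that works with the Polycomb repressive complex PRC2. Its 117 UMIs in WT shallow cells came from 62 cells with at most 4 in 1 cell, and its 39 UMIs in cKO shallow cells came from 24 cells. Levels were 1855 CPM in WT shallow, 396 CPM in deep and 793 CPM in ribosome-poor cells. The cKO levels were 1217, 232 and 494 CPM. The ratio to deep cells was 4.69 (3.58 to 6.14) and 5.24 (3.21 to 8.59), and at 500 UMIs it was detected in 53.3% and 47.7% of shallow cells against 15.5% and 11.1% of deep cells.

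These levels were lower at greater depth. Gm42418 stood at 38216 CPM in WT cells of 500 to under 800 UMIs and at 21636 CPM from 800 to under 1200. It stood at 15280 CPM from 1200 to under 2500, at 5362 CPM from 2500 to under 5000 and at 8861 CPM from 5000. The cKO values over the same ranges were 20750, 17337, 8957, 5532 and 7498 CPM. The level was thus higher in both shallow ranges than in any deeper range, and was not lowest in the deepest cells. Just inside the limit, 8 WT cells of 1000 to under 1200 UMIs had 1.85% Gm42418, and 9 WT cells of 1200 to under 1400 UMIs had 1.35%. In the cKO library the same ranges held 4 cells with 1.20% and 7 cells with 1.51%. For the ribosomal limit, 13 WT cells from 2.5 to under 3% had 1.18% and 17 WT cells from 2 to under 2.5% had 0.868%. The cKO values were 0.961% in 3 cells and 1.03% in 10 cells.

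Jarid2 differed from Gm42418 in its course in the WT library. Its WT levels were 1959 and 1650 CPM in the lower 2 ranges of depth and 539, 340 and 348 CPM in the upper 3. The cKO levels were 1061 and 1438 CPM, then 376, 202 and 223 CPM. The step for Jarid2 lay near 1200 UMIs, between the second and the third range in each library. In the cKO library Gm42418 also fell most between these ranges, from 17337 to 8957 CPM. Within the shallow cells, Gm42418 was also higher where the ribosomal share was higher in the WT library, at 19242 CPM for 2.5 to 4%, 41327 CPM for 4 to 6% and 41555 CPM above 6%. The cKO values were 17895, 16011 and 25416 CPM, with no such step between the first and second ranges.

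**Figure D3:**
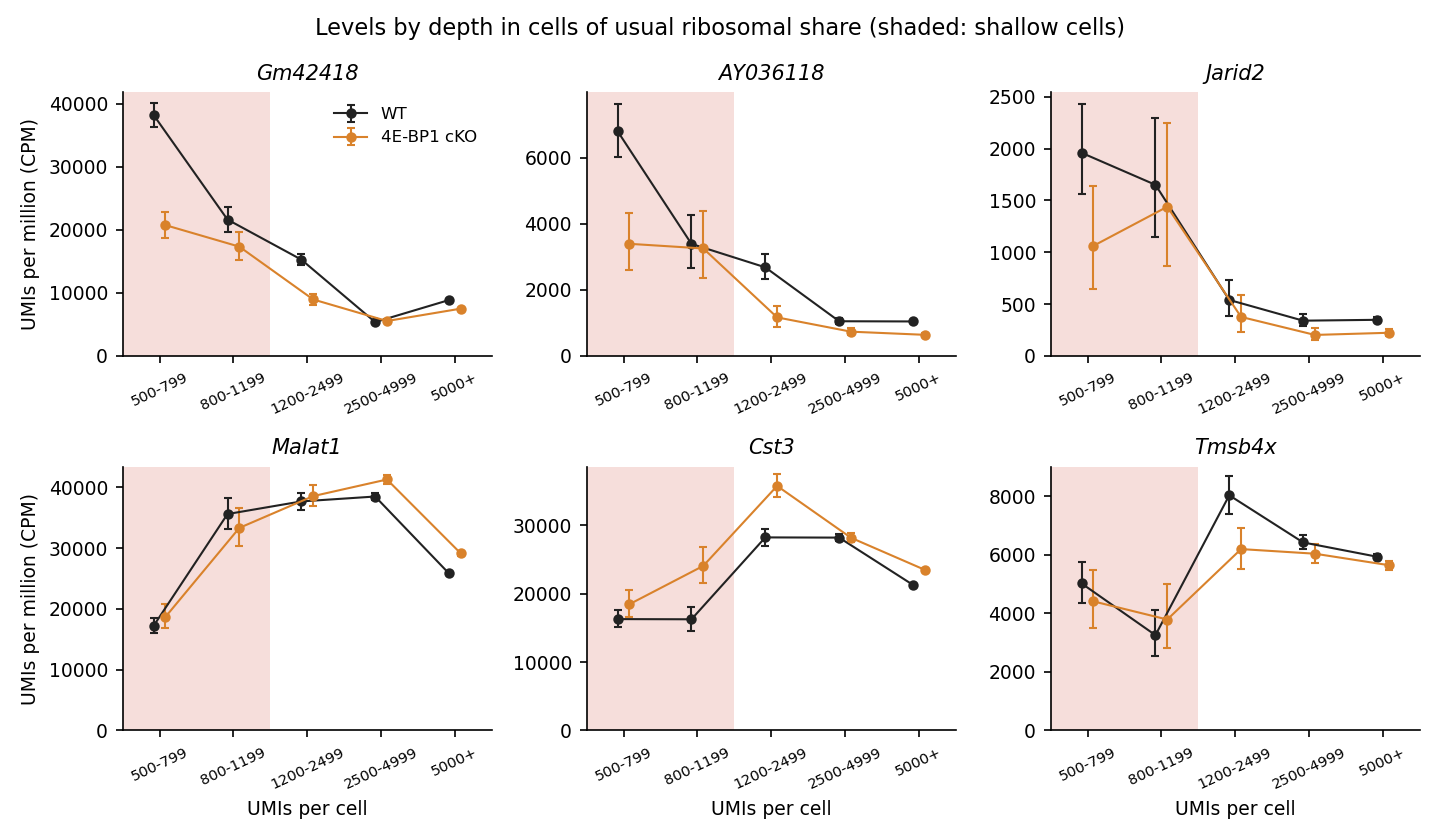
Levels in CPM (UMIs of a gene per 1000000 UMIs of the group) of 6 genes in cells with at least 2.5% ribosomal protein UMIs, by range of UMIs per cell, in the WT and 4E-BP1 cKO libraries, with exact Poisson 95% intervals. The shaded ranges are the shallow cells. Gm42418 is at 38216 CPM in the first and 5362 CPM in the fourth range in WT, and Malat1 is lowest in the first range of each library.

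Some genes near the top by level had a like pattern and were chosen after their values were seen. Cmss1 had 4153 CPM in WT shallow, 1732 CPM in deep and 1098 CPM in ribosome-poor cells. Camk1d, a calcium/calmodulin-dependent kinase, had 3472, 1452 and 1749 CPM. Lars2, the mitochondrial leucyl-tRNA synthetase, had 808, 258 and 122 CPM. The cKO levels were 2621, 1458 and 535 CPM for Cmss1, 2122, 972 and 1131 CPM for Camk1d, and 499, 254 and 82.3 CPM for Lars2. All 3 were highest in shallow cells in each library. Other abundant genes had a large excess in cKO shallow cells and none in WT. Mef2a, a transcription factor of the MADS-box family, had 3370 CPM in cKO shallow and 1662 CPM in deep cells, with a log2 ratio of 1.02 against −0.36 in WT. Lrmda had 3526 and 1458 CPM, with log2 ratios of 1.27 in cKO and −0.01 in WT.

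Malat1, a nuclear long noncoding RNA, was lower than in deep cells. It took 2.34% (2.22 to 2.46%) of UMIs in WT shallow cells and 3.10% in deep cells, a ratio of 0.76 (0.71 to 0.80). For cKO cells the share was 2.47% (2.30 to 2.65%) against 3.50%, a ratio of 0.71 (0.65 to 0.76). Shallow ribosome-poor cells stood far above both, at 7.41% and 7.52%. Malat1 depended on where the limits of the rule were put. It was 17221 CPM in WT cells of 500 to under 800 UMIs and 35588 CPM from 800 to under 1200. It was 40685 CPM in WT shallow cells of 2.5 to 4% ribosomal share and 10977 CPM in those above 6%. With a minimum of more than 500 genes the WT log2 ratio to deep cells turned from −0.40 to 0.28, and with a ribosomal limit of 2% it was 0.04.

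Across all genes, the depth of the shallow groups limited what could be said of single genes. A gene was compared where its mean level in the 2 groups was at least 100 CPM, which in WT shallow cells is about 6 UMIs, and ribosomal protein and mitochondrial genes were left out. In the WT library 132 of 1836 genes (7.19%) were higher and 77 (4.19%) lower by 2-fold or more in shallow than in thinned deep cells. In the cKO library 305 of 1820 (16.8%) were higher and 134 (7.36%) lower. The median log2 ratio over all compared genes was 0.07 and 0.20. The cKO library had fewer UMIs, and the part of this in its larger counts was not tested. With a minimum of 200 CPM the counts were 39 and 16 in WT and 97 and 43 in cKO. The same CPM minimum stands for fewer UMIs in cKO shallow cells, which held 32052 UMIs in all against 63082 in WT. These counts therefore do not match the libraries in UMIs per gene, and the number of genes compared at this minimum is not given here. Of 1478 genes compared in each library, 20 were higher and 10 lower in both.

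The 10 genes with the largest excess in both libraries were Jarid2, Pltp, AY036118, 5330438D12Rik, Cdk8, Gm42418, Fancc, Plxnb2, Ttc28 and Gpr155. Cdk8, the kinase of the Mediator complex, had 1347 CPM in WT shallow and 468 CPM in deep cells, a ratio of 2.88 (2.16 to 3.81). In the cKO library it had 686 and 225 CPM, a ratio of 3.05 (1.69 to 5.41), and its UMIs came from 52 and 17 cells. Pltp, the phospholipid transfer protein, rested on 12 and 7 UMIs. Plxnb2, a semaphorin receptor, rested on 15 and 5. Ttc28 had 66 and 22 UMIs, of which 17 and 7 came from 1 cell each. Fancc, a subunit of the Fanconi anaemia core complex, had 18 WT UMIs of which 11 were in 1 cell. Only Gm42418, AY036118, Jarid2, Cdk8 and Ttc28 of these had at least 20 UMIs in the shallow cells of each library.

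The 10 genes with the largest deficit in both libraries were Dclre1c, Atp5e, Rcbtb2, 4933406I18Rik, Tnrc6c, P4ha1, Gpx1, Tmsb10, Myo1f and Arf4. Tmsb10, a thymosin that binds actin monomers, had 9 UMIs in WT and 6 in cKO shallow cells. Its levels were 143 against 349 CPM in WT and 187 against 387 CPM in cKO, ratios of 0.41 (0.18 to 0.81) and 0.48 (0.17 to 1.12). Gpx1, a glutathione peroxidase, had 143 against 298 CPM and 156 against 359 CPM. Atp5e, the epsilon subunit of mitochondrial ATP synthase, had 79.3 against 214 CPM and 62.4 against 275 CPM. All 10 rested on at most 12 UMIs in the shallow cells of a library, so their order among themselves is not resolved.

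**Figure D4:**
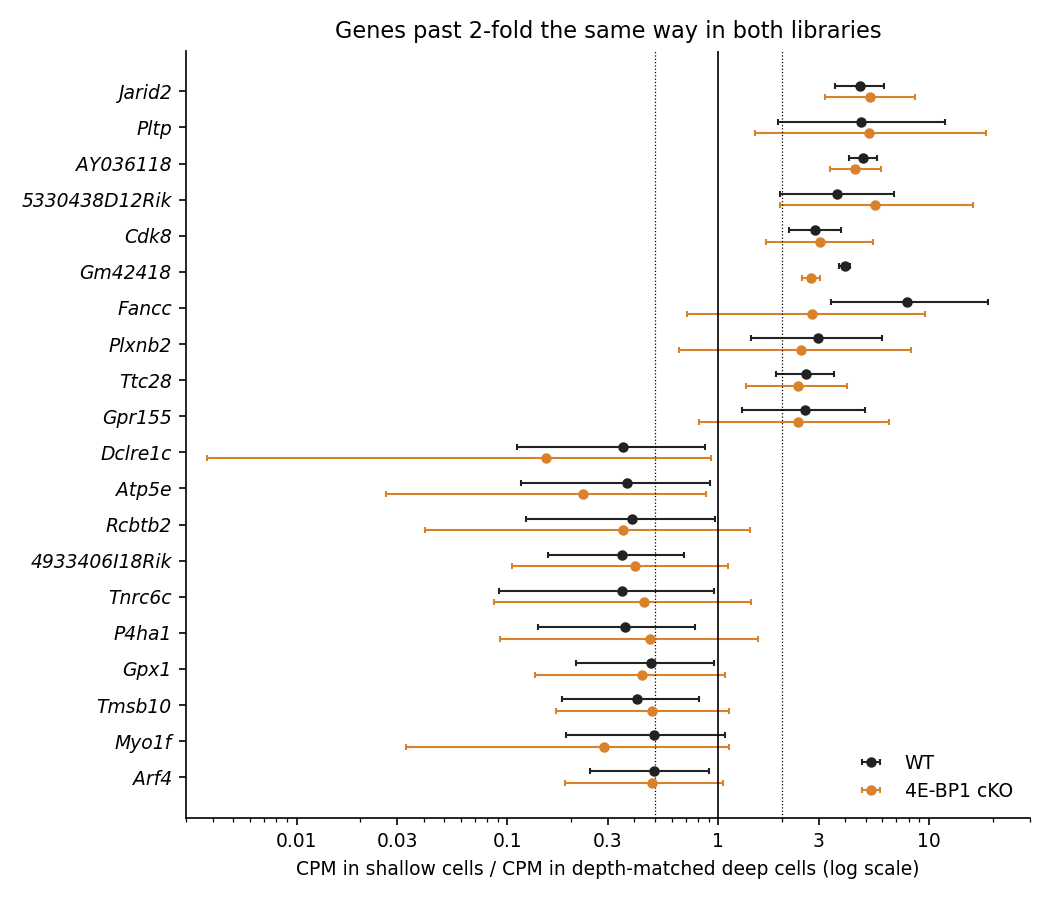
Ratio of the level in shallow cells to that in thinned deep cells (log scale) for the 10 genes highest and the 10 lowest in both libraries, with exact 95% intervals from counting. Dotted lines mark 2-fold. Gm42418 has the narrowest intervals, at 3.99 in WT and 2.75 in 4E-BP1 cKO, and most of the lower genes have a cKO interval that includes 1.

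Microglial genes did not all differ from deep cells in the same way. Cst3, which encodes the secreted protease inhibitor cystatin C and was the most abundant gene of the list, took 1.63% of UMIs in WT shallow and 2.41% in deep cells, a ratio of 0.68 (0.63 to 0.72). The cKO values were 2.08% and 2.73%, a ratio of 0.76 (0.70 to 0.83). Cx3cr1, the fractalkine receptor used in the sort, stood at 1522 against 2723 CPM and 1622 against 2535 CPM, ratios of 0.56 (0.45 to 0.69) and 0.64 (0.47 to 0.86). Aif1, which encodes the actin-binding protein Iba1, had 127 against 450 CPM in WT and 250 against 415 CPM in cKO, ratios of 0.28 (0.12 to 0.57) and 0.60 (0.25 to 1.26) on 8 UMIs each. Cst3 and Cx3cr1 were thus lower in shallow cells of each library, and the cKO interval of Aif1 includes 1.

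P2ry12, a purinergic receptor of microglial processes, had ratios of 0.89 (0.69 to 1.13) and 1.14 (0.78 to 1.64), with intervals that include 1. Over the 18 microglial genes, 5 were higher and 13 lower in WT, and 7 higher and 11 lower in cKO. The median log2 ratio was −0.20 and −0.07, against 0.07 and 0.20 over all genes, and Aif1 in WT was the 1 gene past 2-fold. Over all genes, 839 of 1836 were lower in WT and 729 of 1820 in cKO, and 4.19% were lower past 2-fold in WT, a share close to 1 of 18.

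Genes of the cytoskeleton, complement and respiration were mostly lower in shallow cells. For 12 compared genes of the actin cytoskeleton, 10 were lower in each library and 2 of them past 2-fold, with a median log2 ratio of −0.44 in WT and −0.53 in cKO. Over all compared genes, 839 of 1836 and 729 of 1820 were lower, 4.19% and 7.36% were lower past 2-fold, and the medians were 0.07 and 0.20. Tmsb4x had 4423 against 6328 CPM in WT and 4150 against 5803 CPM in cKO. Actb, beta-actin, had 2853 against 4440 CPM and 2246 against 4021 CPM. The list took 1.07% of UMIs in WT shallow cells and 1.48% in deep cells, and 0.930% and 1.39% in the cKO library.

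Complement and TREM2 receptor genes took 1.07% against 1.39% in WT and 1.13% against 1.35% in cKO, with 8 and 6 of 9 genes lower. C1qa, a chain of the complement starter C1q, had ratios of 0.80 (0.68 to 0.93) and 0.76 (0.60 to 0.96). Nuclear-encoded respiratory chain genes took 0.430% against 0.563% in WT and 0.409% against 0.675% in cKO, with 10 of 12 and 11 of 14 genes lower and 1 and 5 past 2-fold. The WT count of 1 of 12 stands beside 4.19% of all genes, and the cKO count of 5 of 14 beside 7.36%. The mitochondrial genome itself went the other way, at 1.55% against 1.06% and 1.13% against 0.916%, within the limit the filter set. Iron and metallothionein genes took 0.461% against 0.607% in WT and 0.521% against 0.700% in cKO, but their members went both ways. Of those compared, 3 of 5 were lower in WT and 3 of 6 in cKO, with median log2 ratios of −0.24 and 0.00. None was lower past 2-fold, and 1 in cKO was higher past 2-fold, beside 16.8% over all genes. Ftl1, the ferritin light chain, was at 0.60 (0.48 to 0.75) and 0.83 (0.63 to 1.07) of deep cells. The ribosomal protein genes, which the rule used, took 5.02% against 7.37% and 5.25% against 8.15%.

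Several lists had close shares in shallow and deep cells of at least 1 library. Lysosomal genes took 2.02% against 2.18% in WT, a ratio of 0.925 (0.870 to 0.983) that leaves out 1. They took 2.05% against 2.18% in cKO, a ratio of 0.939 (0.862 to 1.02). In each library 0 of 18 genes were past 2-fold. Over all genes 7.19% were higher and 4.19% lower past 2-fold in WT, and 16.8% and 7.36% in cKO. Disease-associated genes took 0.831% against 0.799% and 0.992% against 0.984%. Translation factors took 0.799% against 0.802% and 0.836% against 0.906%. Interferon-stimulated genes took 0.116% against 0.129% and 0.122% against 0.145%, and 16 of the 33 genes of the list in WT and 19 in cKO were at 0 in shallow cells. MHC genes took 0.225% against 0.238% in WT. In cKO they took 0.287% against 0.231%, a ratio of 1.24 (0.975 to 1.57), with 5 of 5 compared genes higher and 2 past 2-fold, beside 1091 of 1820 and 16.8% over all genes. The p53 and integrated stress genes took 0.119% against 0.110% and 0.153% against 0.136%. Predicted genes with Gm or Rik names other than Gm42418 took 2.78% against 2.78% and 2.21% against 2.33%, while ribosome-poor cells had 6.01% and 5.59%. The nuclear long noncoding list was not among these. It consisted mostly of Malat1 and took 2.44% against 3.18% in WT, a ratio of 0.766 (0.725 to 0.808), and 2.53% against 3.58% in cKO, a ratio of 0.706 (0.655 to 0.761).

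NF-kappaB targets and feedback genes took 1.02% of UMIs in WT shallow and 0.810% in deep cells, and 0.939% and 1.09% in the cKO library. Immediate early genes took 2.59% of UMIs in WT shallow and 2.47% in deep cells, with 15 of 20 higher and a ratio of 1.05 (0.992 to 1.11) that includes 1. They took 2.53% against 3.03% in the cKO library, a ratio of 0.835 (0.774 to 0.900), with 13 of 20 lower. Over all compared genes, 997 of 1836 were higher in WT and 729 of 1820 lower in cKO. Fos, the AP-1 subunit, was lower in each library, at 0.67 (0.55 to 0.81) and 0.58 (0.44 to 0.75) of deep cells. Egr1, a zinc finger transcription factor, was at 1.32 (1.11 to 1.56) in WT and 0.98 (0.79 to 1.22) in cKO. Nfkbia, the NF-kappaB inhibitor that NF-kappaB itself induces, was at 1.41 (1.15 to 1.72) and 0.73 (0.55 to 0.95). Its level in shallow cells was alike, at 2124 and 2059 CPM, and the deep cells differed, at 1503 and 2824 CPM.

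Heat shock genes took 1.26% (1.17 to 1.35%) in WT shallow and 0.995% in deep cells, and 0.633% (0.549 to 0.726%) and 0.722% in the cKO library. Hspa1b, an inducible Hsp70 whose reads may be shared with its near copy Hspa1a, had 2933 against 1670 CPM in WT and 593 against 634 CPM in cKO. Hsp90aa1, an inducible Hsp90, was higher in shallow cells of each library, at 1.57 (1.29 to 1.91) and 1.64 (1.09 to 2.43) of deep cells. All 90 WT shallow cells had a heat shock UMI, and the cell with the most held 61 of 795. These genes respond to handling of tissue as well as to stress in vivo, and the part of cell isolation in these values was not tested.

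Chemokine ligand genes took 0.560% against 0.598% in WT and 0.842% against 1.06% in cKO. Ccl4, which encodes the chemokine MIP-1 beta, led the list at 3313 against 3649 CPM and 5397 against 6669 CPM. Cytokine genes took 0.200% against 0.163% and 0.268% against 0.204%. Il1a, interleukin 1 alpha, led that list with 43 UMIs in 23 WT cells and 44 UMIs in 18 cKO cells. Its ratio to deep cells was 1.30 (0.91 to 1.84) in WT and 2.29 (1.56 to 3.34) in cKO, but 16 of the 44 cKO UMIs came from 1 cell.

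**Figure D5:**
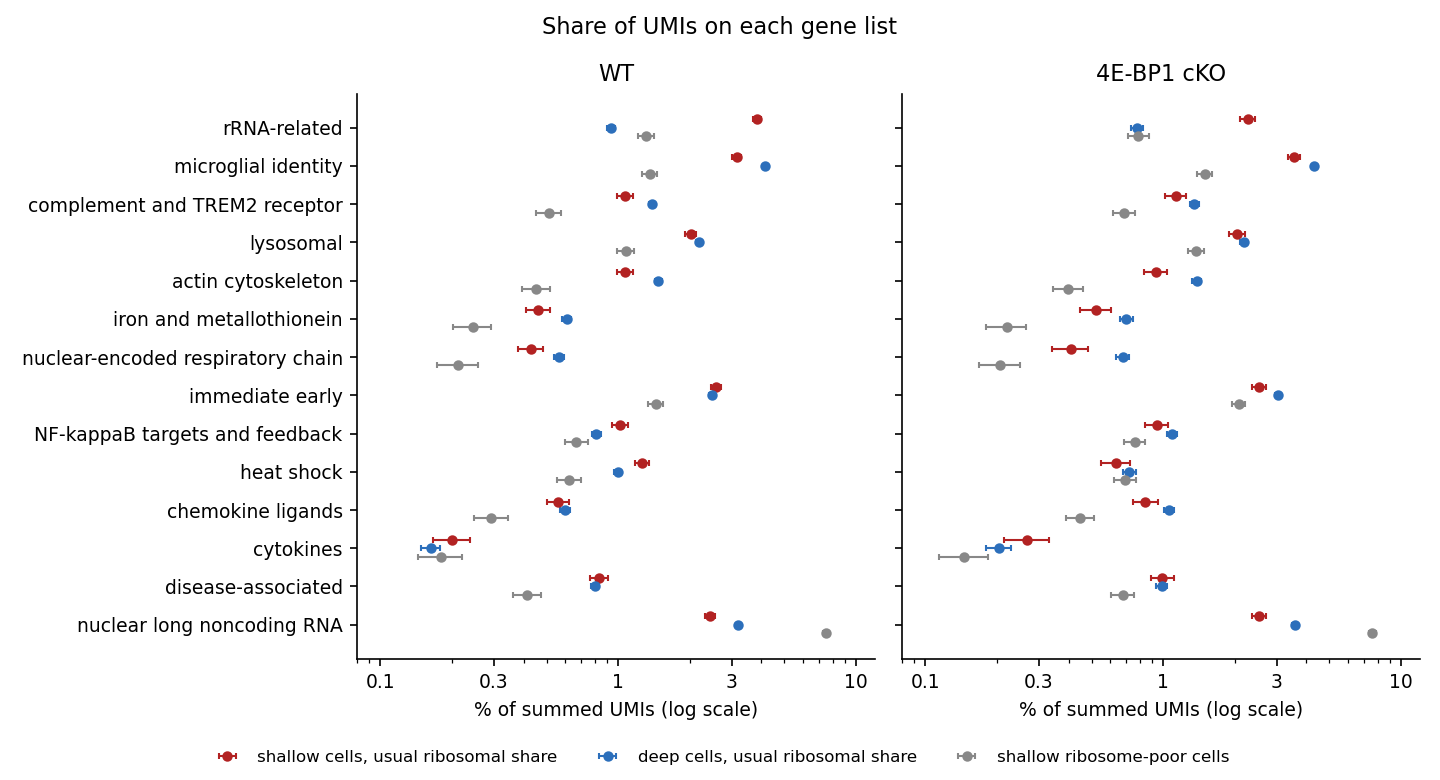
Percentage of summed UMIs (log scale) on each gene list in shallow cells, thinned deep cells and shallow ribosome-poor cells of the WT (left) and 4E-BP1 cKO library (right), with exact binomial 95% intervals. The rRNA-related genes Gm42418 and AY036118 stand at 3.83% in WT and 2.27% in cKO shallow cells, well right of both other groups, while microglial identity lies between them.

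By the median over genes, short genes had lower ratios to deep cells than long ones. Genes spanning up to 5 kb had a median log2 ratio of −0.15 in WT and −0.24 in cKO, and genes over 100 kb had 0.12 and 0.41. In WT the medians did not go up steadily, at 0.13 from 20 to 50 kb and 0.08 from 50 to 100 kb, while cKO had 0.15 and 0.34. The span was known for 99.1% and 99.4% of compared genes. By summed UMIs, genes up to 5 kb took 13.5% in shallow and 12.5% in deep cells in WT. In cKO they took 12.4% and 13.9%. Gm42418, which falls in this class by its coordinates, alone took 3.26% in WT shallow and 0.819% in WT deep cells. That gap is larger than the gap of the whole class, so the higher WT share of short genes rests on this transcript. In cKO Gm42418 took 1.93% and 0.704%. Genes over 100 kb took 20.6% and 21.3% of UMIs in shallow cells, 18.5% and 15.8% in deep cells and 24.2% and 22.7% in ribosome-poor cells. Shallow cells lay between the other groups on this measure, and whether reads from introns are behind it was not tested.

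A few shallow cells held many UMIs of 1 rarely seen gene. The counts that follow are a description only, since the genes were chosen as rare in deep cells and since the same number of UMIs of a gene makes up a smaller part of a deep cell. Counting genes under 200 CPM in deep cells that reached at least 8 of a cell's 500 UMIs, 5 of 90 WT shallow cells had such a gene (5.56%, 1.83 to 12.5%), and 2 of 440 deep cells (0.455%, 0.0551 to 1.63%). In the cKO library it was 2 of 44 shallow cells (4.55%, 0.555 to 15.5%) and 1 of 207 deep cells (0.483%, 0.0122 to 2.66%). Shallow ribosome-poor cells had 1 of 50 and 3 of 59. The genes, chosen after their values were seen, were Ublcp1 with 16 UMIs, Meg3 with 15, Rora with 14, Wdfy2 with 12, Fancc with 11 and Grm7 with 8 in WT, and Mex3c with 10 and Abtb2 with 9 in cKO. Meg3, a long noncoding RNA of neurons, and Grm7, a metabotropic glutamate receptor, were in the same cell of 594 UMIs, and Meg3 had 0 UMIs in the 440 deep WT cells.

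Markers of other cell types were near 0. T cell and NK cell markers had 0 UMIs in shallow cells of either library. Monocyte markers had 3 and 0 UMIs, with the WT count set against 1 in thinned deep cells, a ratio of 13.1 (1.05 to 688). Neutrophil markers had 1 and 0 UMIs, neuron markers 3 and 0, pericyte markers 0 and 1, and proliferation markers 1 and 0. Border macrophage markers had 4 and 3 UMIs, all of Stab1, and the other 7 of 8 were at 0. Astrocyte markers had 6 and 6 UMIs and endothelial markers 9 and 1. B cell markers had 17 and 5 UMIs, of which 16 and 5 were of Ighm.

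Haemoglobin and oligodendrocyte transcripts also had intervals above the level of deep cells in WT, on more UMIs. Erythrocyte markers had 21 UMIs in 14 of 90 WT shallow cells, led by Hbb-bs with 9. This was 7.05-fold (3.37 to 15.3) above thinned deep cells. The cKO library had 2 UMIs in 2 of 44 shallow cells. Oligodendrocyte markers had 11 UMIs in 7 WT shallow cells, of which 5 were in 1 cell, and 1 UMI in the cKO library. Their WT share of 0.0174% was below the 0.0244% of ribosome-poor cells. Cells with at least 2 markers of 1 other type numbered 6 WT and 0 cKO shallow cells, against 55 and 15 deep cells, which were read more deeply. Free RNA could not be estimated, and its part in these UMIs and in the Gm42418 level was not tested.

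Between the libraries, shallow cells differed in rRNA-related, heat shock and chemokine transcripts, and also in measures of RNA quality and other cells. The mitochondrial genome took 1.55% of UMIs in WT and 1.13% in cKO shallow cells, a ratio of 0.73 (0.65 to 0.82). Predicted Gm and Rik genes, again without Gm42418, were at 0.79 (0.73 to 0.87), with 16 of 43 lower by 2-fold or more, and erythrocyte markers were at 0.19 (0.02 to 0.77). The part of these in the differences below was not tested. Over all genes, 287 of 1928 (14.9%) were higher and 259 (13.4%) lower by 2-fold or more in cKO than in WT shallow cells. Gm42418 in cKO shallow cells was at 0.59 (0.54 to 0.65) of its WT level, and in deep cells at 0.86 (0.80 to 0.93). It was also lower in cKO shallow ribosome-poor cells, at 0.574% against 0.909% in WT. In ribosome-poor cells of 1200 to under 2500 UMIs it took 0.518% in cKO and 0.927% in WT, and from 2500 UMIs 0.620% and 0.821%. The lower cKO level was thus not confined to the shallow cells described here. Jarid2 was at 0.66 (0.44 to 0.95) in shallow and 0.59 (0.39 to 0.87) in deep cells. The heat shock list was at 0.50 (0.43 to 0.59) of its WT share in shallow cells, with 7 of 13 genes lower by 2-fold or more, and Hspa1b was at 0.20 (0.12 to 0.32) in shallow and 0.38 (0.30 to 0.48) in deep cells. Chemokine ligands were at 1.51 (1.28 to 1.77) and Ccl4 at 1.63 (1.32 to 2.0) in shallow cells. Ccl4 in deep cells had a ratio of 1.83, so the higher level in the cKO library was not confined to shallow cells.

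By the same measure microglial identity was at 1.13 (1.05 to 1.21), but Cst3 held 1027 of its 1985 WT and 666 of its 1138 cKO UMIs. Over its 18 genes the median log2 ratio was −0.01, so the higher share was not a shift of most of its genes. Of these, 1 was higher and 1 lower past 2-fold, beside 14.9% and 13.4% over all genes. Apoe, an apolipoprotein raised in reactive microglia, was at 1.68 (1.17 to 2.42). Tmem119, whose promoter drives Cre in the cKO mice, had 28 UMIs in WT and 4 in cKO shallow cells, a ratio of 0.28 (0.07 to 0.80), and its ratio in deep cells was 0.42. Eif4ebp1 had 3 and 2 UMIs in shallow cells. Reads near the 3' end need not report on a deletion elsewhere in the gene, so these UMIs check nothing.

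Of genes with at least 20 UMIs over both libraries, those with the largest excess in cKO shallow cells were Ankhd1, Ankrd17, Tbc1d16, Pde4b and Ptpro. Ankhd1 had 11 UMIs in 8 WT cells and 39 UMIs in 13 cKO cells, of which 11 were in 1 cell, a ratio of 6.98 (3.50 to 15.1). For Ankrd17, Tbc1d16, Pde4b and Ptpro, 1 cell gave 10 of 23, 10 of 25, 8 of 19 and 12 of 23 cKO UMIs. These ratios rest in large part on single cells.

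Lowest in cKO shallow cells were Gm19951, Tmcc1, Cdk13, Wdfy2 and Rab31. Gm19951, a long noncoding RNA, had 36 UMIs spread over 26 WT cells and 0 in cKO shallow cells, at least 6.10-fold higher in WT against a floor of 3 counts over the group. In WT it stood at 571 CPM in shallow and 83.5 CPM in deep cells, a ratio of 6.83 (3.94 to 12.1). Tmcc1 had 21 UMIs in 10 WT cells and 0 in cKO, at least 3.56-fold higher in WT. Rab31, a small GTPase, had 71 UMIs in WT, of which 49 were in 1 cell, and 5 in cKO. Gm19951 was the 1 gene among these 5 in which no WT cell held more than 3 UMIs.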

How the data were processed

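Per gene and barcode, the authors deposited UMI counts, not normalised, from Cell Ranger (version 8.0.1 in the file headers, genome mm10). The sources used here name no annotation release. Doublets were kept. Scrublet (scanpy 1.11.5) called 4 WT and 11 cKO kept cells and 0 shallow cells, and the study's own doublet removal was not repeated. UMIs were summed over cells and expressed as CPM, and log2 ratios carry a pseudocount of 1. Deep cells were thinned without replacement to 626 (WT) or 686 (cKO) UMIs. Intervals were exact Poisson, Clopper-Pearson and conditional ratio intervals (scipy 1.17.1). The 32285 genes included 85 ribosomal protein and 13 mitochondrial genes. Shown genes were Cxcl10, Spp1, genes of the lists, the 10 highest and 10 lowest past 2-fold in both libraries, ranked by the smaller absolute log2 ratio, and the 5 highest and 5 lowest in cKO over WT with at least 20 UMIs. The group of cells and the lists were chosen with earlier results of these data known. The respiratory chain, translation factor, rRNA-related and Gm or Rik lists, gene span and single-cell pile-ups were added after the data were seen. Cxcl11, Mx1 and Ddit3 were not matched. Some marker genes are not reported here. Empty droplets were not analysed here. Scripts were tested on simulated data.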

Additional observations from a re-analysis of the deposited data

Results flagged for a closer look

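Of the gene lists, 2 lay above deep cells in the shallow cells of 1 library and below them in the other, with intervals on opposite sides of 1. NF-kappaB targets and feedback genes were at 1.26 of deep cells in WT and at 0.861 in 4E-BP1 cKO. Oligodendrocyte markers were at 2.53 in WT, on 11 UMIs, and at 0.0715 in cKO, on 1 UMI against 62 in thinned deep cells. Among the deep cKO cells, 1 held 101 of 153 oligodendrocyte marker UMIs before thinning. Neither difference between the libraries was tested, since each genotype had 1 library.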

How the results depend on the processing

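Under 16 alternatives, no ratio past 2-fold changed sign among the 11 genes recomputed. Requiring more than 500 genes left 26 WT and 17 cKO shallow cells (2.41% and 4.30% of kept cells) and a WT median of 373 genes at 500 UMIs, with a cKO Cxcl10 log2 ratio of 1.57 against 0.19. Genes past 2-fold then numbered 350 higher and 174 lower in WT, 242 lower in cKO, 45 higher and 32 lower in both, and 431 higher and 484 lower between libraries. A minimum of 200 CPM gave, higher and lower, 39 and 16 in WT, 97 and 43 in cKO, 7 and 4 in both, and 97 and 74 between libraries. A minimum of 50 CPM gave 364 and 301, 708 and 522, 65 and 55, and 647 and 653. A depth limit of 1500 UMIs gave 202 higher in cKO, and 10 higher and 5 lower in both. A ribosomal limit of 2% gave 5 lower in both, and thinning all cells to 500 UMIs gave 130 lower in WT and 20 lower in both. The log2 ratio to deep cells ranged from 1.23 to 2.21 (WT) and from 1.36 to 1.71 (cKO) for Gm42418, from 1.51 to 2.41 and from 1.92 to 2.39 for AY036118, from 1.95 to 2.40 and from 1.72 to 2.83 for Jarid2, and from −0.89 to 0.28 and from −0.69 to −0.09 for Malat1. Spp1 ranged from 0.53 to 2.24 and from 1.03 to 2.93, and in WT Tmsb4x from −1.0 to −0.36 and Aif1 from −2.21 to −0.83, so that these and Cxcl10 crossed 2-fold in 1 library under some alternatives. The causes of these shifts were not tested. No replicate could be left out. No paired analysis was possible because each genotype had 1 library.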
